A study of Mus musculus with 2 samples.

Results

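*Cd163l1*+ γδ T cells were examined among the immune cells sorted from B16-OVA tumors, a mouse melanoma line that carries ovalbumin as a model antigen. Cells were chosen by their unique molecular identifiers (UMIs, each counting 1 captured RNA molecule), on 5 conditions. A member held at least 1 UMI of *Cd163l1*, at least 1 of the γδ receptor genes *Tcrg-C1*, *Tcrg-C2*, *Trdc* and *Trdv4*, at least 1 of *Cd3d*, *Cd3e* and *Cd3g*, no UMI of *Cd8a* or *Cd8b1*, and at most 25% of its UMIs from mitochondrial genes. 50 of 13470 cells passed. The creatine library held 44 of them among 6229 cells, and the control library held 6 among 7241. The detection of these genes is what chose the cells, so their levels below are a description and support nothing.

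Each library was 1 pool of 4 tumors harvested on day 14 from C57BL/6J mice, by the study's methods males of 8 to 12 weeks. Mice of the creatine group were injected intraperitoneally with 10.5 mg creatine in saline each day. The control library is labelled PBS and nontreated, although its treatment entry repeats the creatine injection, and it is taken as the control here. The pool size and day are those of the labels, and the study's text gives another day and another number of mice in other places. DAPI-negative CD45.2+ cells were sorted and 10000 were loaded per library for 3′ droplet sequencing. With 1 library for each condition there is no replicate, so no difference between the libraries was tested, and intervals below cover counting error only. The libraries shared 30 cell barcodes.

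γδ T cells carry a T cell receptor built from a γ and a δ chain in place of α and β, and many of them sit in tissues and respond without prior priming. One branch is set in the thymus to make interleukin-17 and depends on the transcription factors SOX13 and c-MAF, on the kinase BLK and on signals from the interleukin-1, interleukin-7 and interleukin-23 receptors. Its Vγ6 members pair with the δ variable segment encoded by *Trdv4*. *Cd163l1* encodes SCART1, a scavenger receptor with cysteine-rich domains known from γδ T cells of this branch.

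The receptor variable segments tell γδ subsets apart, so the last 60 coding bases of 5 of them are shown, read from GENCODE M21 transcripts on GRCm38. Capitals mark the codon of the conserved cysteine with which the third hypervariable loop begins.
Trdv4 (chr14:54075456-54075515, plus strand): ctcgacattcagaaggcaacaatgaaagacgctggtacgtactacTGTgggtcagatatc
Tcrg-V6 (chr13:19190870-19190929, plus strand): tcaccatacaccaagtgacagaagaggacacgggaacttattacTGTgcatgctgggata
Tcrg-V4 (chr13:19185447-19185506, plus strand): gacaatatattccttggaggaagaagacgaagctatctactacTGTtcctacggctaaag
Tcrg-V1 (chr13:19340395-19340454, plus strand): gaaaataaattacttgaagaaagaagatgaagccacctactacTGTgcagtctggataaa
Trgv2 (chr13:19336573-19336632, minus strand): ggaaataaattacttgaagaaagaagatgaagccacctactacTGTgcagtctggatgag
The *Tcrg-V1* and *Trgv2* ends are near-identical. Of the 50-base windows in the last 500 bases of the annotated *Tcrg-V1* transcript, 24.6% also occurred in another gene, against 0 for *Trdv4*, *Tcrg-V6* and *Tcrg-V4*. The counts of *Tcrg-V1* and *Trgv2* are therefore uncertain.

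*Trdc*, the δ constant region, was detected in 43 of 44 cells of the creatine library, with a lowest value of 0, a median of 12.5 and a highest value of 46 UMIs per cell. *Trdv4* was counted with 109 UMIs in 34 cells and *Tcrg-V6* with 18 UMIs in 14 cells. *Trdv4* or *Tcrg-V6* was seen in 37 of 44 cells and both in 11. *Trdv4* UMIs were not particular to these cells, as 10.4% of the 908 NK cells of the creatine library held one. A *Tcrg-V6* UMI was held by 1 of the 908. The 37 cells are therefore not a count of cells with a Vγ6 receptor. *Tcrg-V4*, the variable segment of another interleukin-17-making γδ subset, was at 0 UMIs in these 44 cells, and *Tcrg-V1* gave 5 UMIs in 4 of them. *Trdv4* was among the genes that chose the cells, so its share is a description, and *Tcrg-V6* was not. *Trgv2* was counted with 31 UMIs in 16 cells and with 9 UMIs in the control cells. In the 6 control cells, *Trdv4* was counted with 12 UMIs, *Tcrg-V6* with 2, and *Tcrg-V4* and *Tcrg-V1* with 1 each.

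Levels were then compared, within the creatine library, with 3 other T cell groups that had a CD3 UMI, an αβ chain UMI and no *Cd163l1* UMI. These were 2206 CD8 T cells (a *Cd8a* or *Cd8b1* UMI, no *Cd4* or *Foxp3*), 217 conventional CD4 T cells (a *Cd4* UMI, no *Foxp3* or CD8) and 210 regulatory T cells (a *Foxp3* UMI, no CD8). UMIs were summed over the cells of a group and are given as CPM, counts scaled to a sum of 1000000 per group. The sums were 254109 UMIs for the *Cd163l1*+ γδ T cells, 33902024 for CD8, 1399942 for conventional CD4 and 1816093 for regulatory T cells, so 1 UMI in the γδ T cells equals 3.94 CPM. The median depth was 5607 UMIs per *Cd163l1*+ cell, against 11914, 4862 and 6198.

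Among the γ constant regions, *Tcrg-C4* was not used by the gate. Its CPM was 193 (exact 95% Poisson interval 143–255) in the *Cd163l1*+ cells, against 4.22 in CD8, 3.57 in conventional CD4 and 1.65 in regulatory T cells. Cells of the creatine library that met every other condition of the gate without a *Cd163l1* UMI stood at 83.6 CPM. *Tcrg-C1* reached 917 CPM and *Tcrg-C2* 209, both of which chose the cells. Of the windows at their 3′ ends, 31.7% and 33.3% were shared with each other or with *Tcrg-C3*, so their counts are uncertain. *Trgv2*, another γ variable segment, stood at 122 CPM (82.9–173) in 16 of 44 cells, all 16 of which also held a *Tcrg-C2* UMI. In the cells that met every other condition without a *Cd163l1* UMI, *Trgv2* was at 62.5 CPM. Chains of the αβ receptor were not absent. The other T cell groups had to hold an αβ chain UMI, so differences in these chains are partly set by that choice. *Trac*, the α constant region, was at 90.5 CPM (57.4–136), with 23 UMIs in 15 cells, against 730.0, 725 and 1078 CPM. *Trbc1* was at 468 CPM and *Trbc2* at 685, nearer to the levels of the other T cells (542–838 and 947–1519). All 44 cells held a UMI of *Trac*, *Trbc1* or *Trbc2*, mostly of the β constant regions, and the source of these UMIs was not tested. The 3′ windows of *Trbc1* and *Trbc2* overlap by 39.5% and 20.2% with other genes, so their counts are uncertain. *Fcer1g*, a signaling adaptor that can join receptor complexes, was low, at 31.5 CPM (13.6–62.0) against 165, 343 and 229. Its log2 ratio to the nearest group moved from −2.39 to 0.26 when the 6% of cells with the highest doublet scores, none of them *Cd163l1*+ γδ T cells, were left out.

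Across the transcriptome, 5858 genes with a mean of at least 20 CPM over the 4 groups, gate genes left out, were considered. The genes left out were those that chose the *Cd163l1*+ cells. *Trac*, *Trbc1*, *Trbc2*, *Cd4* and *Foxp3*, which chose the other groups, were not left out, and their differences are partly set by that choice. A gene could pass the filter only through the groups in which it was high, so counts of calls are a description. A gene was called higher or lower when it differed at least 2-fold from each of the 3 groups with no overlap of the Poisson intervals. By this rule 109 genes (1.86%) were higher and 172 (2.94%) lower in the *Cd163l1*+ cells than in all 3 groups. With cells that held UMIs of at least 2 of 12 division genes left out of all groups, the counts were 81 and 63, and with the filter at 5 CPM they were 180 and 172. Against each group alone, 9.37% of genes were higher and 9.12% lower than in CD8, 3.12% and 5.29% in conventional CD4, and 4.22% and 8.38% in regulatory T cells. The median log2 CPM ratio of all genes considered was 0.00, −0.05 and −0.10 against the 3 groups.

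**Figure D1:**
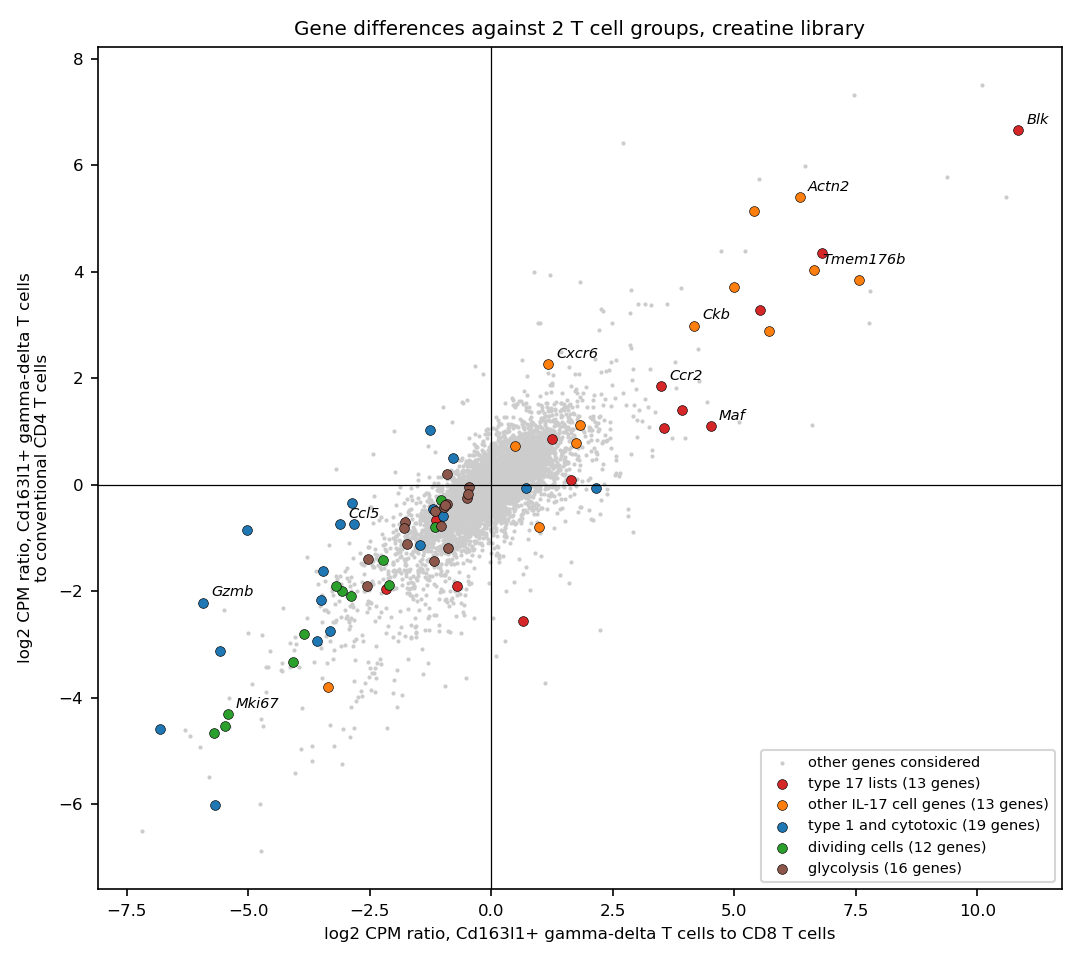
Log2 CPM ratio of the Cd163l1+ γδ T cells to CD8 T cells (x axis) and to conventional CD4 T cells (y axis) for the genes considered in the creatine library, each point 1 gene. Genes of the type 17 lists reach the upper right corner (Blk at 10.84 and 6.66, the latter against a floor of 3 counts), while most dividing-cell genes and many type 1 genes lie in the lower left (Mki67 at −5.42 and −4.31).

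A kinase and a transcription factor of the interleukin-17 branch were present in these cells and nearly absent from the other T cells. *Blk*, a Src family kinase best known from B cells and used by interleukin-17-committed γδ T cells, gave 55 UMIs in 25 cells, or 216 CPM (163–282). It was at 0.118 CPM in CD8 T cells and at 0 UMIs in both other groups, which makes it at least 101.0-fold higher than conventional CD4 and at least 131-fold higher than regulatory T cells, set against a floor of 3 counts over the group. *Sox13* encodes a high-mobility-group factor that steers thymic γδ precursors to this branch. It was counted with 19 UMIs in 15 cells (74.8 CPM, 45.0–117) and with 0 UMIs in all 3 other groups, at least 34.9-fold higher than each. *Sox13* fell under the filter on mean level and is not among the 109 genes. *Blk* and *Sox13* were seen together in 9 cells, and a UMI of either was found in 31 of 44.

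*Maf* and *Rora* were shared with CD4 T cells. *Maf*, encoding c-MAF, was at 740 CPM (638–853) in the *Cd163l1*+ cells, with a lowest value of 0, a median of 3 and a highest value of 13 UMIs per cell. CD8 T cells stood at 32.4 CPM and conventional CD4 T cells at 343, whereas regulatory T cells at 688 CPM overlapped the γδ T cells, with a log2 ratio of 0.11 (−0.12 to 0.33). *Rora*, a nuclear receptor, was at 335 CPM (267–414) against 22.03, 126 and 131, and was called higher than all 3. The *Rora* call ended with both libraries summed and against T cells of the control library. *Zbtb16*, encoding PLZF, a factor of innate-like T cells, was rarer, with 12 UMIs in 10 cells (47.2 CPM) against at most 1.43 CPM in the other groups. Other factors of Th17 cells did not follow this pattern. *Batf* was lower than in all 3 groups (23.6 CPM against 106, 91.4 and 115), and *Stat3* was at 126 CPM against 276, 198 and 218 without meeting the rule.

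**Figure D2:**
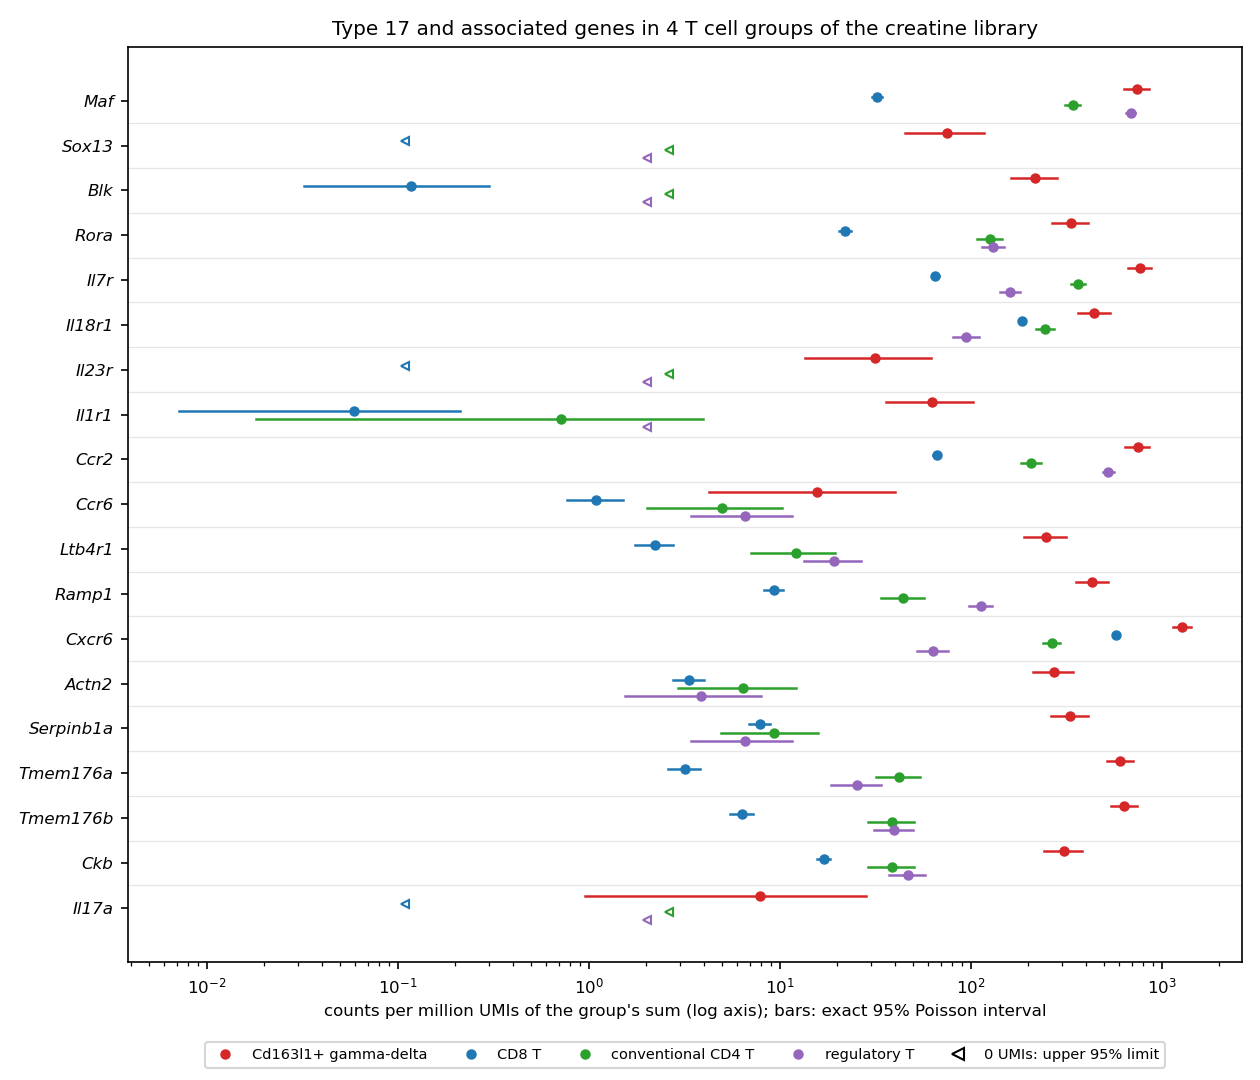
CPM (log axis) of 19 type 17 and associated genes in the Cd163l1+ γδ T cells and 3 other T cell groups of the creatine library, with exact 95% Poisson intervals; open triangles mark the upper limit where a group had 0 UMIs. The γδ T cells lie to the right for Blk, Actn2 and Tmem176a, overlap regulatory T cells for Maf, and have only 2 UMIs of Il17a.

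The cytokines themselves were barely detected. *Il17a* gave 2 UMIs in 2 of 44 cells, or 4.55% of cells (exact 95% Clopper-Pearson interval 0.555–15.47%), and 7.87 CPM (0.953–28.4). After each cell was thinned to 2000 UMIs, 1 of 44 cells (2.27%, 0.0575–12.02%) held one. The other T cell groups, NK cells, B cells and macrophages of the creatine library had 0 *Il17a* UMIs, which for the 32 B cells deep enough for thinning allows up to 9.38% of cells with a UMI by the limit of 3 counts (10.9% by the Clopper-Pearson interval). An *Il17f* UMI was seen in 2 of 2206 CD8 T cells and 1 of 908 NK cells. In the *Cd163l1*+ cells of the creatine library, *Il17f* and *Il22* were at 0 UMIs. For *Il17f* this allows up to 6.82% of the cells to hold a UMI at this depth by the same limit of 3 counts (8.04% by Clopper-Pearson), and it does not limit the share that express the gene. The 6 control cells held no *Il17a* UMI either. Of the 4 genes that name these cells, *Cd163l1*, *Tcrg-C1* and *Trdc* chose them, and *Il17a* marked 2 of 44.

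Receptors that this branch uses ranged from abundant to barely detected. *Il7r*, the interleukin-7 receptor on which these cells depend, was at 767 CPM (663–883) in 40 cells and was called higher than in CD8 (65.1), conventional CD4 (365) and regulatory T cells (161). The call ended in 3 settings, where the log2 ratio of *Il7r* to its nearest group, 1.07 as reported, was 0.99 with the highest Scrublet doublet scores left out, 0.67 with equal weight for each cell and 0.46 with dividing cells left out. *Il1r1* was counted with 16 UMIs in 11 cells (63.0 CPM, 36.0–102) against 2 UMIs in CD8, 1 in conventional CD4 and 0 in regulatory T cells. *Il23r* gave 8 UMIs in 6 cells (31.5 CPM, 13.6–62.0) against 0 UMIs in all 3 groups. Both are thin counts, but their intervals do not overlap those of the 3 groups. *Il18r1*, a receptor chain for interleukin-18, was at 445 CPM (366–535), with log2 ratios of 1.26 (0.98–1.53), 0.86 (0.54–1.18) and 2.23 (1.88–2.58).

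Among migration receptors, *Ccr2* stood at 748 CPM (645–862) with a median of 4 and a highest value of 15 UMIs per cell. It was 11.3-fold higher than in CD8 and 3.61-fold higher than in conventional CD4 T cells, and 1.42-fold higher than in regulatory T cells, under the 2-fold rule. *Ltb4r1*, the leukotriene B4 receptor, was at 248 CPM (191–317) against 2.21, 12.1 and 19.3, and *Ramp1*, a subunit of the receptor for the neuropeptide CGRP, at 433 CPM (356–522) against 9.32, 44.3 and 113. *Cxcr6*, a receptor of tissue-resident T cells, reached 1283 CPM in 40 of 44 cells, 2.24-fold, 4.84-fold and 20.3-fold higher than in the 3 groups. With TMM scaling (trimmed mean of M values) the log2 ratio of *Cxcr6* to CD8 was 0.97, under the 2-fold rule, so this call ended. *Ccr6*, often used to sort interleukin-17-making γδ T cells, was counted with only 4 UMIs in 4 cells. The water and glycerol channel *Aqp3* gave 11 UMIs in 7 cells, or 43.3 CPM against 0.590, 0.714 and 0.551.

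Taking both type 17 lists, 20 of 24 genes had a UMI in the *Cd163l1*+ cells and 13 passed the filter on mean level. Of these 13, 5 were called higher than all 3 groups (*Il7r*, *Ltb4r1*, *Ramp1*, *Rora* and *Blk*) and 1 lower (*Batf*), beside 1.86% and 2.94% of all genes. The calls of *Il7r* and *Rora* ended in the settings given above. The median log2 ratio of the 13 was 3.496 against CD8, 1.07 against conventional CD4 and 0.51 against regulatory T cells, with a gene at 0 UMIs in a group set at the floor of 3 counts. With dividing cells left out of all groups, the type 17 list median against CD8 T cells was 1.84 and that against conventional CD4 T cells was 0.70. The median of the surface genes was 3.56, 1.85 and 2.23 over 5 genes, and that of the regulators and signaling genes was 1.14, −0.28 and −0.59 over 8. The genes that passed include some, such as *Blk*, that did so only through the *Cd163l1*+ cells, so these figures describe the list and are no test of it.

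A wider set of genes described in interleukin-17-making γδ T cells held the most abundant differences. Of its 15 genes, all had a UMI and 13 passed the filter, of which, beside 1.86% and 2.94% of all genes, 7 were higher (*Tmem176a*, *Tmem176b*, *Ckb*, *Actn2*, *Serpinb1a*, *Igf1r* and *Cxcr6*) and 1 lower. Some, such as *Actn2* and *Serpinb1a*, passed the filter only through the *Cd163l1*+ cells, so this count too is a description and no test. The log2 ratio of *Cxcr6* was under 2-fold with TMM scaling, as given above, and with dividing cells left out the log2 ratio of *Igf1r* to its nearest group was 0.99. *Tmem176a* and *Tmem176b*, which overlap at 1 end on opposite strands of chromosome 6 and encode intracellular ion channels, were at 606 CPM (514–710) and 634 CPM (539–739), against 3.19–42.1 and 6.31–39.6 in the other groups. Both were seen in 33 of 44 cells. *Serpinb1a*, an inhibitor of neutrophil-type proteases, was at 331 CPM (264–409) against 7.85, 9.29 and 6.61. *Kcnk1*, a potassium channel gene, gave 17 UMIs in 12 cells, 5 in the control cells and 0 in the 3 other groups. *Lgals3*, encoding galectin-3, went the other way, with 35.4 CPM (16.2–67.2) against 361, 495 and 222.

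*Actn2*, encoding the α-actinin of muscle and heart sarcomeres, was at 272 CPM (211–344) in 29 of 44 cells and at 3.33, 6.43 and 3.85 CPM in the other groups.

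Of 7 genes for creatine transport and metabolism, *Ckb* alone had a UMI in the *Cd163l1*+ cells. *Ckb*, the brain-type creatine kinase that swaps phosphate between creatine and ATP, was counted with 78 UMIs in 32 of 44 cells, at most 9 in a cell. It stood at 307 CPM (243–383) against 16.96 in CD8, 38.6 in conventional CD4 and 46.8 in regulatory T cells, log2 ratios of 4.18 (3.82–4.52), 2.99 (2.47–3.52) and 2.71 (2.25–3.17). A high level was not particular to these cells. Macrophages of the creatine library (a *C1qa* UMI, no CD3 UMI) stood at 219 CPM, with a *Ckb* UMI in 315 of 569 cells. NK cells stood at 24.8 CPM and B cells at 21.8. The creatine transporter *Slc6a8*, *Ckm*, *Ckmt1*, *Ckmt2*, *Gatm* and *Gamt* were at 0 UMIs. For each this allows up to 11.8 CPM by the limit of 3 counts (14.5 by the exact Poisson interval), so their absence was not shown. The 3 *Ckb* UMIs in the 6 control cells are too few for a level.

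Outside the lists, the 15 genes with the largest smallest-of-3 ratio were led by *Tns4*, a tensin of focal adhesions. Some, such as *Tns4*, *Abi3bp* and *Gm9961*, passed the filter only through the *Cd163l1*+ cells. The ratios given are also those that ranked the genes, so they are a description and no test. *Tns4* was at 114 CPM (76.4–164) in 19 cells, against 0.649, 0.714 and 0.551 CPM. Its log2 ratios were 7.46 (6.61–8.33), 7.32 (4.73–12.67) and 7.70 (5.10–13.05), the last 2 against 1 UMI in each CD4 group. Its lowest log2 ratio moved from 7.32 to 4.53 with dividing cells left out, just under that of *Ly6g5b* (4.55). Of the 15 genes, 12 were still called in that setting, 11 with both libraries summed and 11 with members that held a *Trac* UMI left out. *Tns4*, *Abi3bp*, *Gm9961* and *Rnf43* did not pass the filter on mean level in the last of these, nor did *Gm9961*, *Bcl2a1a*, *Rnf43* and *Prrt1* with both libraries summed. *Abi3bp*, an extracellular matrix binding protein, gave 30 UMIs in 14 cells (118 CPM) against 6 UMIs in CD8 and 0 in both other groups, at least 55.1-fold and 71.5-fold higher. The lincRNA *Gm9961*, opposite to *Cpped1* on chromosome 16, gave 23 UMIs in 15 cells against 2, 0 and 0. With dividing cells left out, the lowest log2 ratio of *Abi3bp* moved from 5.78 to 4.46 and that of *Gm9961* from 5.40 to 4.21. *Slc6a13*, a GABA and taurine transporter in the same family as the creatine transporter, was at 90.5 CPM (57.4–136) against 1.03, 1.43 and 2.75. *Krt83*, a hair keratin, was at 142 CPM in 18 cells against 0.649, 17.1 and 1.10, and gave 7 UMIs in the 6 control cells. Against T cells of the control library, the lowest log2 ratio of *Krt83* moved from 3.05 to 2.16 and that of *Trgv2* from 2.71 to 3.61. *Plcb4*, a phospholipase C, gave 98.4 CPM against 0.442, 7.86 and 5.51. *Ly6g5b*, *Gab3*, *Lysmd2*, *Lmo4*, *Rnf43*, *Prrt1* and *Avpi1* were higher by 5.52-fold to 90.5-fold, and *Trgv2*, given above, by 6.55-fold or more. *Bcl2a1a*, an anti-apoptotic BCL2 relative, was at 74.8 CPM against 2.83, 3.57 and 1.65. However, 66.7% of its 3′ windows occur in its near-identical copies, so its count and identity are uncertain.

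Most type 1 and cytotoxic genes were lower than in CD8 T cells (15 of 19, beside 9.12% of all genes), and fewer were lower than in conventional CD4 (8 of 19, beside 5.29%) or regulatory T cells (9 of 19, beside 8.38%). Of 23 genes, 19 passed the filter, 0 were higher than all 3 groups and, beside 2.94% of all genes, 6 were lower (*Gzma*, *Gzmb*, *Nkg7*, *Ccl3*, *Ccl4* and *Cd27*), with a median log2 ratio of −3.12 against CD8, −0.84 against conventional CD4 and −1.02 against regulatory T cells. Some genes of this list, such as *Gzmb* and *Ccl4*, passed the filter only through the other groups, so these counts are a description and no test. The *Ccl3* call ended with dividing cells left out of all groups. Without 6 cells described below, the type 1 list median against conventional CD4 T cells was −2.30. *Gzmb*, encoding granzyme B, was at 23.6 CPM (8.67–51.4), against 1444, 109 and 635. The chemokine *Ccl4* was at 19.7 CPM (6.39–45.9) against 2198, 474 and 572. *Cd27*, a co-stimulatory receptor that interleukin-17-making γδ T cells lack and interferon-γ-making ones keep, was counted with 5 UMIs in 5 cells, 19.7 CPM against 237, 150.01 and 316.

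*Ifng*, encoding interferon-γ, was counted with 12 UMIs in 9 cells, at 47.2 CPM (24.4–82.5), below CD8 (532) and conventional CD4 T cells (211) but not below regulatory T cells (27.0, overlapping intervals). *Cxcr3* and *Klrk1*, receptors linked to type 1 responses, went different ways against CD8 T cells. *Cxcr3* was at 185 CPM (136–246) against 41.7, 193 and 171, and *Klrk1*, encoding NKG2D, at 173 CPM (126–232), between CD8 (416) and regulatory T cells (44.6). Of other cytokines that act on tumors, *Tnf* was at 78.7 CPM in 16 cells, above CD8 (24.9) and level with conventional CD4 T cells (76.4), and *Csf2*, encoding GM-CSF, gave 10 UMIs in 9 cells. *Areg*, *Vegfa*, *Il6* and *Il21* were at 0 UMIs. None of the 3 genes of that list that passed the filter was called, beside 1.86% of all genes higher and 2.94% lower.

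**Figure D3:**
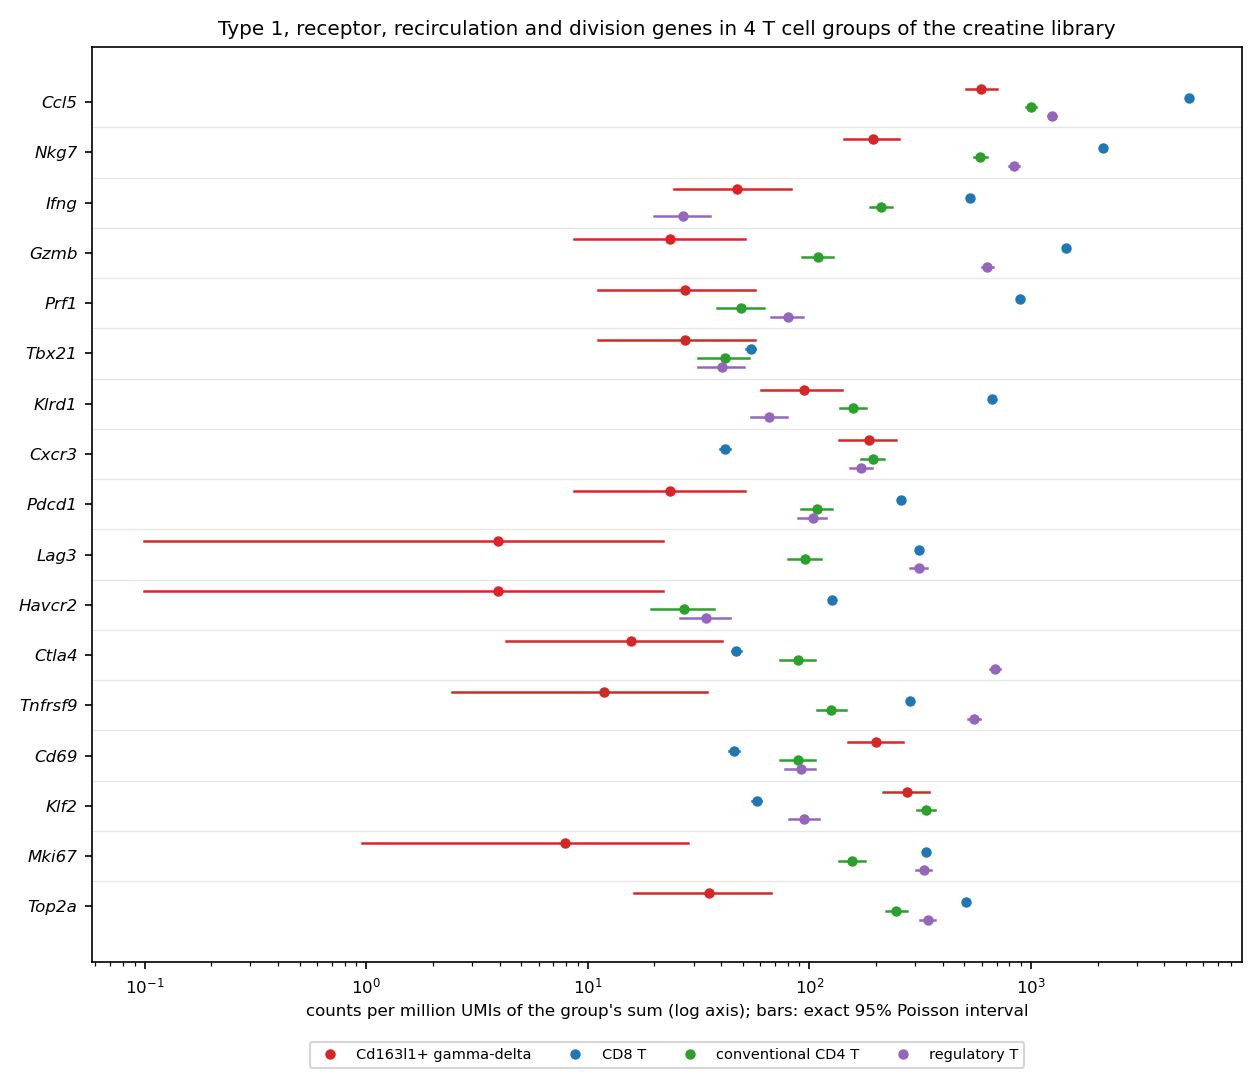
CPM (log axis) of 17 type 1, receptor, recirculation and division genes in the same 4 groups, with exact 95% Poisson intervals. The Cd163l1+ γδ T cells lie to the left for Gzmb, Lag3 and Mki67, and to the right of all 3 groups for Cd69.

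Most receptors of chronic stimulation were low. Of 12 inhibitory and costimulatory receptors, 10 passed the filter, with 7 lower and 1 higher (2.94% and 1.86% of all genes) and medians of −2.89, −2.64 and −3.44. *Pdcd1*, encoding PD-1, was at 23.6 CPM (8.67–51.4) against 259, 108 and 104, and *Lag3* was counted with 1 UMI, 3.94 CPM against 311, 95.7 and 311. *Tnfrsf4*, encoding OX40, was at 0 UMIs, with 1273 CPM in regulatory T cells. *Lag3* and *Tnfrsf4* passed the filter only through the other groups, so the counts of this list are a description and no test. *Cd69*, an early activation and tissue retention marker, was the 1 gene called higher, at 201 CPM (149–264) against 45.8, 88.6 and 91.4. The log2 ratio of *Cd69* to its nearest group, 1.13, was 0.80 with equal weight for each cell and 0.27 with dividing cells left out, so that call ended. In cells that met every other condition of the gate without a *Cd163l1* UMI, *Cd69* was at 135 CPM. Naive and recirculating T cell genes gave 0 higher and 0 lower calls among the 7 of 8 that passed (1.86% and 2.94% of all genes), but 4 of the 7 were higher than in CD8 (9.37% of all genes) and 5 higher than in regulatory T cells (4.22%), with medians of 2.25, −0.17 and 1.504.

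Most genes of dividing cells were low. Of 12 genes of dividing cells, all passed the filter, 8 were lower than in all 3 groups (2.94% of all genes) and 0 higher, with medians of −3.13, −2.05 and −2.96. *Mki67* was counted with 2 UMIs in 2 of 44 cells, 7.87 CPM (0.953–28.4) against 338, 156 and 328. It passed the filter only through the other groups, so the counts of this list are a description and no test. UMIs of at least 2 of the 12 genes were found in 15 of 44 cells (34.1%, 20.5–49.9%), against 69.9% of CD8, 38.2% of conventional CD4 and 51.4% of regulatory T cells, with no correction for the deeper CD8 T cells. The genes lowest outside the lists were mostly of the same kind, and with dividing cells left out of all groups 3 of these 10 were still called. *Hist1h1b* and *Pclaf* were at 0 UMIs, and *Hist1h2ap*, *Ube2c*, *Nusap1*, *Hist1h2ae* and *Cenpf* at 1 UMI each, with 356–574 CPM of *Hist1h2ap* in the other groups. *Hist1h2ae* and *Hist1h2ap* share 56.1% and 93.1% of their 3′ windows with copies, so each is uncertain. The others were *Tyrobp*, a signaling adaptor of NK and myeloid cells (2 UMIs), *Litaf* (1 UMI) and the interferon-induced *Ifitm2* (1 UMI).

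Glycolysis genes were lower than in CD8 T cells for 7 of 16 (9.12% of all genes), than in conventional CD4 for 2 (5.29%) and than in regulatory T cells for 8 (8.38%), and few met the rule for all 3 groups. All 16 passed the filter, 2 were called lower (*Tpi1* and *Ldha*), beside 2.94% of all genes, and 0 higher, with medians of −1.01, −0.59 and −1.18. Both calls ended with equal weight for each cell and with dividing cells left out of all groups. *Ldha*, the lactate dehydrogenase subunit of glycolytic T cells, was at 295 CPM (232–370) against 976, 639 and 873, and *Gapdh* at 661 CPM (565–769) against 2259, 1076 and 1666. Of 12 genes of lipid handling, 8 passed and 1 was lower (2.94% of all genes), the fatty acid binding protein *Fabp5* (66.9 CPM against 219, 339 and 171). With dividing cells left out of all groups the log2 ratio of *Fabp5* to its nearest group moved from −1.36 to 0.31. *Acsbg1*, an acyl-CoA synthetase of Th17 cells, was at 66.9 CPM (39.0–107) against 13.5, 23.6 and 31.9. Immediate early genes, which also respond to tissue dissociation, gave 0 higher and 0 lower calls among the 11 of 13 that passed, beside 1.86% and 2.94% of all genes, so with 11 genes the count says little.

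The *Cd163l1*+ cells were not uniform. In the creatine library 38 of 44 held a UMI of *Maf*, *Sox13* or *Blk* and 6 did not, a split made after the values of each cell were seen and therefore described without a test. The 6 cells were not shallower than the rest (median 6327 against 5521 UMIs), had 82 *Trdc* UMIs and no *Tcrg-V6* UMI, and were not alike. A single cell of 6549 UMIs held their 7 *Trdv4* and 4 *Ccr2* UMIs and 1 each of *Rora*, *Serpinb1a* and *Ckb*, with 0 *Ly6c2* and 2 *Ccl5* UMIs, whereas the other 5 had none of *Trdv4*, *Ccr2*, *Rora*, *Serpinb1a* and *Ckb*. *Cxcr6* gave 3 UMIs in these 6 cells and 323 in the other 38. *Ly6c2* and *Ccl5* had 65 of 70 and 135 of 152 UMIs in the 6 cells. *Ccl5* was at 80, 41, 6, 4, 2 and 2 UMIs in them, against at most 5 in each of the 38. *Ly6c2* was at 33, 18, 8, 6, 0 and 0 UMIs, against at most 1 in each of the 38. The cell with 41 *Ccl5* and 18 *Ly6c2* UMIs held 0 *Trdc* and 0 *Tcrg-C1* UMIs and met the gate by 1 *Tcrg-C2* UMI. It also held 1 *Tcrg-C4* and 2 *Trgv2* UMIs, beside 3 of *Trac*, 5 of *Trbc1* and 9 of *Trbc2*.

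Without the 6 cells, *Ly6c2* moved from 275 to 23.7 CPM (7.70–55.4) and *Ccl5* from 598 to 80.7. *Nkg7* moved from 193 to 114, *Ifng* from 47.2 to 42.7 and *Gzmb* from 23.6 to 19.0. Most UMIs of *Ccl5*, and most of *Ly6c2*, thus came from 2 cells each. The number of genes called higher was 155 without them and 109 with them, of which 104 were shared. In the control library 3 of the 6 cells had no UMI of these regulators. They held 58 of the 63 *Ly6c2* and 67 of the 69 *Ccl5* UMIs there, and 10 *Ncr1* UMIs. The control cells together gave 7 *Maf*, 2 *Blk* and 0 *Sox13* UMIs in 39997 UMIs. Markers of NK cells and group 1 innate lymphoid cells summed to 1300 CPM in the control cells (52 UMIs), against 216 in the creatine cells, and their part in any difference between the libraries was not tested.

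**Figure D4:**
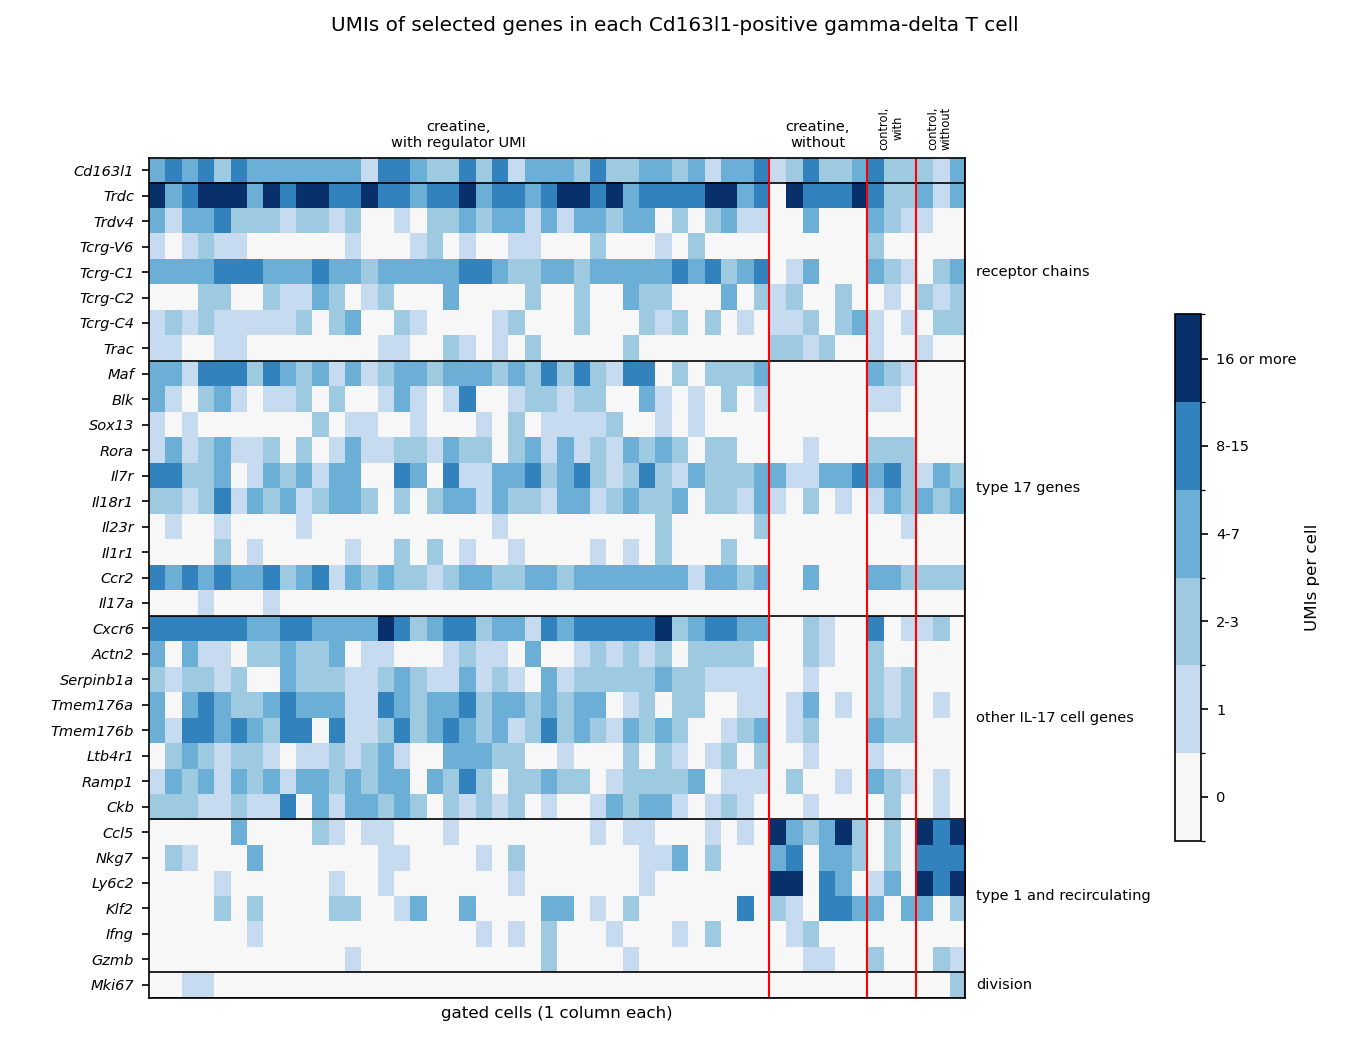
UMIs of 33 genes (rows) in each of the 50 Cd163l1+ γδ T cells (columns, ordered by library, by a UMI of Maf, Sox13 or Blk, and by depth); red lines separate the 38 and 6 creatine cells and the 3 and 3 control cells with and without such a UMI. Cxcr6, Ccr2 and Tmem176b have UMIs in most columns of the first block, while the highest Ly6c2 and Ccl5 counts lie in columns without a regulator UMI, 2 of which hold no Ly6c2 UMI.

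The threshold on *Cd163l1* left 4 cells of the creatine library just inside, with exactly 1 UMI, and 2 of these held a *Sox13* or *Blk* UMI. Just outside were 291 cells that met every other condition with 0 *Cd163l1* UMIs. Of these, 3 held a *Sox13* or *Blk* UMI and 194 held an *Ncr1* or *Klrb1c* UMI, genes of NK cells, against 3 of 44 *Cd163l1*+ cells. *Cd163l1* was detected in 76 cells of the creatine library in all. The gate left out 19 of them for lack of a γδ chain UMI and 13 for a CD8 UMI, and 0 for lack of CD3. In the control library the 27 *Cd163l1*+ cells lost 18, 3 and 0 in the same way. NK cells held a *Cd163l1* UMI in 0.330% and macrophages in 0.527% of cells, and 0 of 35 B cells did, which allows up to 10.0% of them (Clopper-Pearson), at median depths of 5699, 10686 and 3626 UMIs.

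Markers of other cells were given for the whole lists. Of 8 genes of NK cells and group 1 innate lymphoid cells, 5 had a UMI, summing to 216 CPM against 271, 185 and 159, with *Txk* the most abundant (43 UMIs in 19 cells) and *Ncr1*, *Klra4* and *Klra8* at 0. Of 10 monocyte and macrophage genes, 9 had a UMI and summed to 1200 CPM against 1536, 3061 and 1901. *Ccr2* made up 190 of the 305 UMIs, *Csf1r* was at 0 and 6 of the 9 that passed the filter were lower than in all 3 groups, beside 2.94% of all genes. Of 5 markers of CD4 and regulatory T cells, 3 had a UMI, summing to 460.4 CPM against 137, 689 and 2631. *Foxp3* and *Cd40lg* were at 0, and *Ikzf2*, encoding Helios, gave 97 UMIs in 36 cells (382 CPM against 105, 234 and 1757). The other T cell groups were chosen partly by *Foxp3*, so differences in *Foxp3* are set by that choice. The segments of NKT and MAIT receptors (*Traj18*, *Trav11*, *Trav1* and *Traj33*) were at 0 UMIs. *Cd79a* and *Ms4a1* of B cells, *S100a8* and *S100a9* of neutrophils, *Flt3*, *Xcr1* and *Clec9a* of dendritic cells and *Il5*, *Il13* and *Il1rl1* of group 2 innate lymphoid cells were also at 0. The remaining genes of the B cell list gave 19 UMIs (74.8 CPM against 59.9, 126 and 334), led by *Ighm*. The dendritic cell list gave 84 UMIs (331 CPM against 530.2, 1516 and 2106), led by *Cd74*, the neutrophil list 1, of *Csf3r*, and the group 2 list 21 (82.6 CPM against 66.5, 174 and 149), led by *Gata3*. Melanoma genes summed to 220.4 CPM against 140.0, 28.6 and 24.2, and their 56 UMIs included 42 of *Dct*, 37 of them in 1 cell. *Dct* met the rule as a gene higher than all 3 groups, and most of its UMIs come from that cell. The part of these markers in the differences above was not tested.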

How the data were processed

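Per the labels, the values are raw UMI counts per gene and cell barcode, which the authors made from 10x 3′ reads before they were deposited. The submitters' processing notes name Cell Ranger 3.0.2 and the build mm10. The libraries held 7649 (control) and 6503 (creatine) cells with 80434564 and 72898494 UMIs over 31053 genes. Cells with over 25% mitochondrial UMIs were left out, which kept 7241 and 6229 cells at median depths of 7688 and 8475 UMIs, and 0 columns of unknown samples were met.

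Members and comparison groups were gated on UMIs, without clustering. UMIs were summed per group, rows of 1 symbol were added up, and sums were set against each other by CPM with exact 95% Poisson intervals and exact conditional intervals of their ratio. These cover counting error only, since cells are not replicates and each condition had 1 library, so no p-value was computed. A group at 0 UMIs entered at a floor of 3 counts. For shares of cells, each cell was thinned to 2000 UMIs.

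The text names genes of 23 lists (235 genes, some others not being reported here) and, outside them, the 15 called higher genes with the largest smallest-of-3 ratio and the 10 called lower genes with the lowest largest-of-3 ratio. The members, lists and rules were chosen with earlier results of these data known. Scrublet's own threshold called 13 (0.180%) and 20 (0.321%) cells, too few to have worked, so no doublets were removed. Alternatives were TMM scaling, other gene and cell filters, the highest 6% of Scrublet scores, dividing cells or mitochondrial and ribosomal protein genes left out, equal weight per cell and both libraries summed. The calling was tested on simulated data, whose outcome is not given here, and no result above rests on it. Python 3.11.15 with numpy 2.4.6, scipy 1.17.1, pandas 2.3.3, scanpy 1.11.5 and matplotlib 3.10.9, and R 4.3.3 with edgeR 4.0.16 for the TMM factors alone, were used. Gene positions and shared 3′ sequence came from GENCODE M21 on GRCm38 (mm10), in which 30934 genes of the files had an entry.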

Additional observations from a re-analysis of the deposited data

How the results depend on the processing

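The number of genes higher than all 3 groups was 180 with a mean CPM filter of 5 and 185 with no filter, which admit rarer genes such as *Sox13* by construction, and lay between 81 and 155 under the other alternatives, against 109. The number of lower genes was 112 with equal weight for each cell and 63 with dividing cells left out, against 172, and 49 of these 63 were among the 172. The cause of both was not tested. The type 17 median log2 ratio to CD8, 3.496 as reported, was 2.37 with TMM scaling, 3.89 with a filter of 5, 3.85 with no filter, 2.55 with at least 2 *Cd163l1* UMIs, 2.82 with equal weight and 1.84 with dividing cells left out. Against conventional CD4 it was 1.53 with a filter of 5 and with no filter, 0.73 with equal weight and 0.70 with dividing cells left out, against 1.07. The type 1 list median against CD8 T cells lay between −3.82 and −2.31, and the type 1 list median against conventional CD4 T cells between −2.30 (without the 6 cells that lack a regulator UMI) and −0.54, below 0 in all settings run. The share of cells with *Il17a* lay between 2.00% and 4.55%. *Fcer1g* reversed to 0.26 with the highest Scrublet scores left out, and *Fabp5* to 0.31 with dividing cells left out, and the cause was not tested. Calls also ended where the log2 ratio of *Rora* to its nearest group was 0.88 with both libraries summed and 0.59 against T cells of the control library, the log2 ratio of *Ldha* was −0.83 with equal weight and −0.58 with dividing cells left out, the log2 ratio of *Tpi1* −0.69 and −0.35 in the same settings and −0.82 without the cells with a *Trac* UMI, and the log2 ratio of *Ccl3* −0.66 with dividing cells left out. Among the called genes recomputed one by one under these settings, these 2 alone changed sign. No filter moved the median of all genes against CD8 to 0.60, TMM scaling to −0.19 and leaving out dividing cells to 0.11. Leaving out cells with an αβ chain UMI left 0 cells and gave no value, so leaving out the 15 with a *Trac* UMI was added after seeing the data (109 higher and 134 lower genes, 74 and 108 of them shared), as were leaving out the 6 cells without a *Maf*, *Sox13* or *Blk* UMI (155 and 147) and the T cells of the control library as comparison groups (141 and 200, 87 and 121 shared). No paired analysis was possible because each condition had 1 library. At 254109 UMIs, a gene at 0 in the creatine cells may still reach 11.8 CPM.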
